A study of Mus musculus with 3 samples.

Results

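Transglutaminases are enzymes that join proteins by a bond between a glutamine and a lysine side chain, with calcium as a cofactor. *Tgm2* encodes tissue transglutaminase, which acts on matrix proteins such as fibronectin, also binds GTP inside the cell, and is known as a gene that retinoic acid induces in many cells and interleukin-4 in macrophages. *F13a1* encodes the A subunit of coagulation factor XIII, which thrombin activates and which then cross-links fibrin. Monocytes, macrophages and megakaryocytes are its known sources, and the protein has also been described in cartilage cells. Both genes were followed in cells of early heterotopic ossification masses, which form when bone morphogenetic protein draws cells into cartilage and bone outside the skeleton.

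The 2 genes were members chosen by name, of 31053 genes listed, after results of the same data were known, and their levels are therefore given as descriptions. The cells were grouped by measured values. A cell was called stromal when *Col1a1*, *Col1a2*, *Col3a1*, *Dcn* and *Lum* together held at least 1% of its unique molecular identifiers (UMIs, which count RNA molecules caught). A cell below that limit was called a macrophage when a UMI of *Csf1r* (the receptor of macrophage colony-stimulating factor) or of *C1qa* (complement) was detected. Macrophages were then split by detection of *Ms4a7*, *Retnla* and *Mmp12*. Each gene had a single row in the files. Levels are UMIs per 1000000 UMIs of the class (CPM), with an exact Poisson interval of 95%.

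All 3 groups were female CD-1 mice aged 6 to 8 weeks with Matrigel implanted under the skin, and their masses were taken on day 5. The Matrigel-only mice had no rhBMP2 and no drug. The Vehicle mice had rhBMP2 in the Matrigel and were given the carrier of corn oil and DMSO by mouth. The Palo mice had the same rhBMP2 implant and were given palovarotene, an agonist of the retinoic acid receptor gamma, at 4 mg/kg daily. The Matrigel-only mice were thus untreated rather than dosed with carrier, and the masses of a group were combined, so that each condition was 1 library with no replicate. No difference below has a replicate check, no test was made, and each interval covers counting error only. A difference between libraries cannot be told apart from a difference between preparations.

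The libraries held 44252421 to 46901673 UMIs, in 6065 to 9249 barcodes, of which 5478 to 8728 passed the filter on genes and mitochondrial UMIs. Matrigel-only, Vehicle and Palo gave 2085, 1373 and 1184 stromal cells and 5812, 3253 and 5661 macrophages. All 10 stromal markers were detected in at least 10% of the stromal cells of each library, and all 10 macrophage markers in at least 10% of the macrophages. These lists include the 5 and 2 genes that defined the classes, so the result was partly set by the rule. In stromal cells 7, 6 and 7 of the macrophage markers also passed 10%, and in macrophages 3, 4 and 3 of the stromal markers. The median depth was 9082, 17114 and 12955 UMIs in stromal cells and 3090.5, 3646 and 4254 UMIs in macrophages, and 11 to 21 barcodes were shared by any pair of libraries. Just under the limit, at 0.5 to 1% stromal UMIs, there were 56, 52 and 10 cells, in which *F13a1* was at 1274, 120.2 and 739 CPM and *Tgm2* at 0, 31.6 and 68.7 CPM. Just above it, at 1 to 2%, there were 38, 99 and 8 cells, in which *F13a1* was at 623, 74.4 and 21.4 CPM and *Tgm2* at 61.8, 14.9 and 64.1 CPM.

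The stretch around the active site is shown because it is what makes both genes transglutaminases. The capitals mark the codon of the cysteine that forms the thioester with the substrate, and the coding strand of GENCODE vM21 is written 5′ to 3′.
Tgm2: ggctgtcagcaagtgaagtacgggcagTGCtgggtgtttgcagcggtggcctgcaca
F13a1: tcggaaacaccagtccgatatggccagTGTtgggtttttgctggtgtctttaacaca
The *Tgm2* stretch lies in exon 6 of 13, at chr2:158131332-158131388 on the minus strand of mm10, and holds codon 277 of 686. The *F13a1* stretch lies in exon 7 of 15, at chr13:36946444-36946500 on the minus strand, and holds codon 315 of 732. The stretches were identical at 30 of 57 bases and coded for the same residue at 11 of 19 codons. *Tgm2* (ENSMUSG00000037820, chr2:158116402-158146436) overlaps *Rprd1b* on the opposite strand, which stayed at 15.2 to 19.8 CPM in macrophages and 16.5 to 18.1 CPM in stromal cells of all 3 libraries. *F13a1* (ENSMUSG00000039109, chr13:36867178-37050244) overlaps *Gm49144* and *Gm30489* on the opposite strand, and neither passed 0.393 CPM in either class. How reads in the overlaps were assigned by strand is not given in the sources used here.

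In macrophages, the genes moved in opposite directions between the libraries. *Tgm2* was at 6.83 CPM in Matrigel-only macrophages (139 UMIs, interval 5.74 to 8.06), at 119.1 CPM in Vehicle (1710 UMIs, 113.5 to 124.9) and at 12.8 CPM in Palo (352 UMIs, 11.5 to 14.2). The intervals of the 3 libraries did not overlap, and the Vehicle library stood far above the others. *F13a1* was at 2243 CPM in Matrigel-only macrophages (2222 to 2263), at 789.5 CPM in Vehicle (775 to 804) and at 1236 CPM in Palo (1222 to 1249). It was thus lowest where *Tgm2* was highest, and Palo lay between the other libraries for both genes.

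As ratios, *Tgm2* was 17.5-fold higher in Vehicle than in Matrigel-only macrophages (log2 4.13, 3.88 to 4.39) and 9.29-fold lower in Palo than in Vehicle (log2 -3.22, -3.38 to -3.05). *F13a1* was 2.84-fold lower in Vehicle than in Matrigel-only (log2 -1.51, -1.54 to -1.48), and its log2 ratio of Palo over Vehicle was 0.65 (0.62 to 0.68). Palo over Matrigel-only gave 0.91 for *Tgm2* (0.62 to 1.20) and -0.86 for *F13a1* (-0.88 to -0.84). The Palo and Vehicle comparisons share the Vehicle library, so opposite signs in them are not independent. Of the 9551 genes with a mean of at least 5 CPM in macrophages, 2.49% were at least 2-fold higher and 1.17% at least 2-fold lower in Vehicle than in Matrigel-only. In Palo over Vehicle, 0.879% were at least 2-fold higher and 3% at least 2-fold lower. With 5 CPM added, *Tgm2* ranked 7 from the highest of these genes in Vehicle over Matrigel-only and 21 from the lowest in Palo over Vehicle, and *F13a1* ranked 28 from the lowest in Vehicle over Matrigel-only. The median of all genes in Palo over Vehicle was -0.14, and TMM factors raised every macrophage log2 ratio of that comparison by 0.20, to -3.02 for *Tgm2* and 0.85 for *F13a1*.

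**Figure D1:**
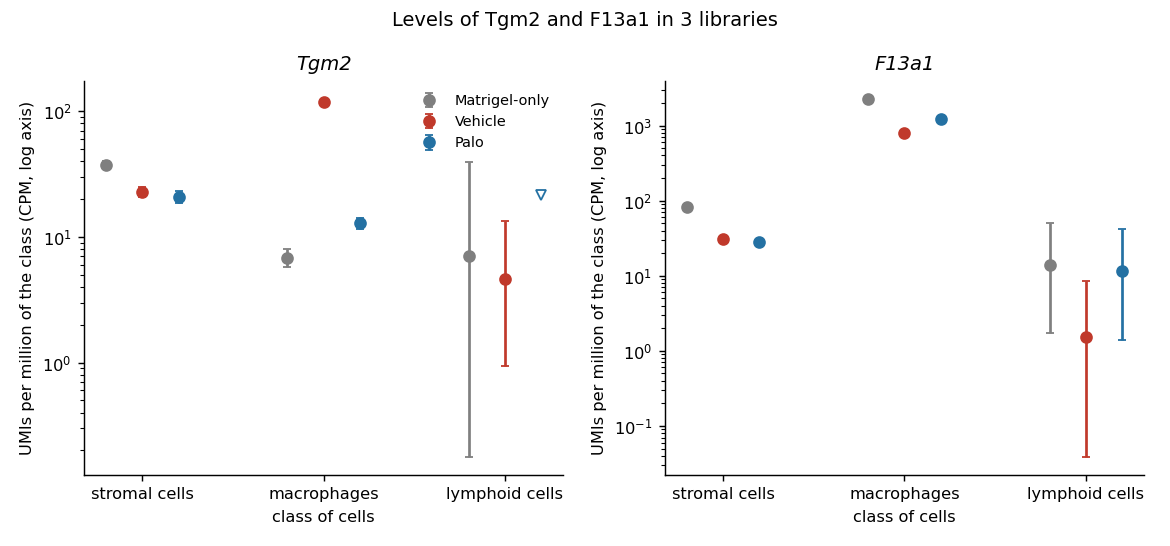
Levels of *Tgm2* (left) and *F13a1* (right) in CPM on a log axis, by class of cells, with 1 point for each library and exact Poisson intervals of 95%. The open triangle is the upper end of the exact interval, 21.3 CPM, where no UMI was found. *Tgm2* stands at 119.1 CPM in Vehicle macrophages against 6.83 and 12.8 CPM in the other libraries, while *F13a1* is lowest there, at 789.5 CPM.

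**Figure D2:**
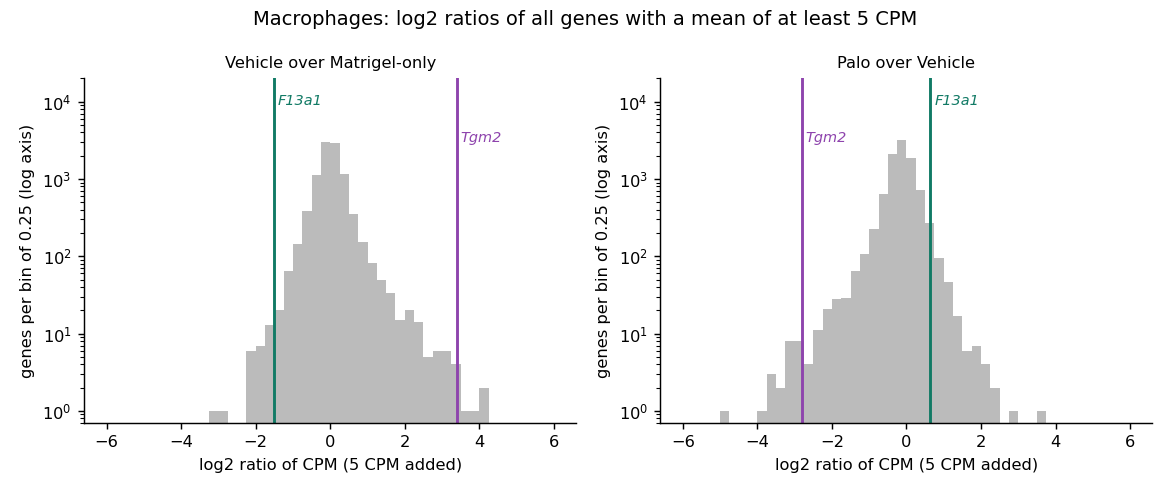
Log2 ratios in macrophages of the 9551 genes with a mean of at least 5 CPM (5 CPM added), as the number of genes per bin on a log axis, with lines for *Tgm2* and *F13a1*. *Tgm2* lies at 3.39 in Vehicle over Matrigel-only and at -2.80 in Palo over Vehicle, and *F13a1* at -1.50 and 0.64.

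Droplets carry free RNA, and lymphoid cells, which are not known to make either enzyme in quantity, were used as the background. *Tgm2* was at 7.02 CPM in 90 Matrigel-only lymphoid cells (0.178 to 39.1), at 4.58 CPM in 260 Vehicle lymphoid cells (0.945 to 13.4) and had no UMI in 72 Palo lymphoid cells, which allows up to 17.4 CPM. The *Tgm2* levels of Matrigel-only and Palo macrophages thus lay within the intervals of the few lymphoid cells, and the Vehicle level lay above that of the Vehicle lymphoid cells. Cells led by dendritic markers had no *Tgm2* UMI in 136 Matrigel-only cells, which allows up to 5.51 CPM, and none in 81 Palo cells, which allows up to 7.18 CPM. The exact intervals reach 6.77 and 8.83 CPM. The interval of Palo macrophages lay above the Palo limit, and that of Matrigel-only macrophages covered 6.77 CPM. In 56 Vehicle cells led by dendritic markers *Tgm2* was at 19.2 CPM (6 UMIs, 7.04 to 41.8). Vehicle cells led by neutrophil markers, 82 in all, were at 81.7 CPM on 6 UMIs (30.0 to 177.7), an interval that covers the macrophage level. The fold of *Tgm2* in Vehicle over Matrigel-only is a ratio to a level close to that of such cells. For *F13a1*, the lymphoid cells were at 14.05, 1.53 and 11.6 CPM, far under the macrophages of each library.

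The share of cells gave the same order. Thinned to 700 UMIs per cell, *Tgm2* was found in 0.459% of Matrigel-only macrophages, 7.97% of Vehicle macrophages (7.05 to 8.96) and 0.909% of Palo macrophages, against 0.602% and 0.344% of Matrigel-only and Vehicle lymphoid cells and 0 of 71 Palo lymphoid cells, which allows up to 4.23%. In each library 24 to 95 macrophages and 1 to 4 lymphoid cells were too shallow to be used. Without thinning, the shares of macrophages were 2.00%, 26.4% and 5.05%. Thinned in the same way, *F13a1* was found in 68.9%, 35.2% and 48.7% of macrophages and in at most 1.58% of lymphoid cells. Without thinning, it was found in 91.2%, 62.8% and 84.2% of macrophages. Median depths of lymphoid cells were 1340.5 to 1982 UMIs, below those of macrophages.

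Vehicle macrophages differed in how much *Tgm2* they carried. A UMI was found in 859 of them, 519 of which had a single UMI, 51 had at least 5, and the highest cell had 50. The top 1% of cells, 32 in all, held 21.4% of the *Tgm2* UMIs. In the Matrigel-only and Palo libraries a single macrophage each reached 5 UMIs. *F13a1*, at far higher levels, had 5 or more UMIs in 3378 Matrigel-only, 835 Vehicle and 2570 Palo macrophages. The top 1% of cells held 5.87%, 9.65% and 8.03% of its UMIs in these libraries, a share that also depends on the level. Both genes were found together in 517 Vehicle macrophages and *Tgm2* without *F13a1* in 342. In Vehicle macrophages with a *Tgm2* UMI, *F13a1* was at 561 CPM against 885 CPM in those without (log2 -0.66, -0.72 to -0.59). The same difference was -0.66 in Matrigel-only and -0.29 in Palo, so that *F13a1* was lower beside *Tgm2* in all 3 libraries. These cells share a library, and the depth of cells with a *Tgm2* UMI was higher (medians of 3975 against 3539 UMIs in Vehicle).

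*Ms4a7*, which encodes a membrane protein of mature tissue macrophages, marked the macrophages with most *F13a1*. In Matrigel-only, *F13a1* was at 2803 CPM in macrophages with *Ms4a7* and 1553 CPM in those without. In Vehicle the levels were 1059 and 386 CPM, and in Palo 1726 and 751 CPM. The level was thus 1.81-, 2.74- and 2.30-fold higher with *Ms4a7*, and no interval of the ratio reached 0. *Mmp12*, the macrophage elastase, marked the macrophages with least *F13a1*. With *Mmp12* the level was 837, 312 and 540.2 CPM in Matrigel-only, Vehicle and Palo, and without it 2475, 895 and 1436 CPM, a difference of 2.96-, 2.87- and 2.66-fold. *Retnla*, a secreted protein of alternatively activated macrophages, divided *F13a1* far less, with log2 differences of -0.22, 0.15 and -0.42.

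*Tgm2* followed another pattern. In Vehicle macrophages it was at 53.5 CPM with *Retnla* (44.7 to 63.6) and at 132.2 CPM without (125.8 to 138.9), a 2.47-fold difference. It was also lower with *Ms4a7* (104.4 against 141.3 CPM) and with *Mmp12* (90.2 against 125.5 CPM) in Vehicle. Vehicle macrophages in which none of the 3 genes was detected, 843 cells, had the highest *Tgm2* of all 8 combinations, 199 CPM (183.5 to 215.5). In Palo, none of the 3 genes divided *Tgm2* beyond counting error, with log2 differences of -0.05, -0.07 and 0.15 for *Ms4a7*, *Retnla* and *Mmp12*. In Matrigel-only macrophages, where the whole level was close to background, *Tgm2* was at 4.98 CPM with and 9.09 CPM without *Ms4a7*. *Mmp12* went the other way there from Vehicle, with 10.7 CPM with and 6.18 CPM without it (log2 0.79, 0.17 to 1.38, against -0.48 in Vehicle).

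Detection of a gene depends on depth, and cells with *Mmp12* were deeper, with medians of 4500, 6290 and 6107 UMIs against 2944, 3449 and 3982. When the split was made on counts thinned to 1400 UMIs, no difference beyond counting error changed its sign, and the log2 differences of *F13a1* were 0.60, 1.07 and 0.87 for *Ms4a7* and -1.63, -1.72 and -1.69 for *Mmp12*. With Vehicle macrophages divided by depth into 4 groups of like size, *Tgm2* was at 146.2, 172.7, 151.9 and 79.2 CPM from the shallowest to the deepest. In each of the 4 it lay above the highest level of such a group in Matrigel-only, 8.26 CPM, and in Palo, 16.3 CPM.

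**Figure D3:**
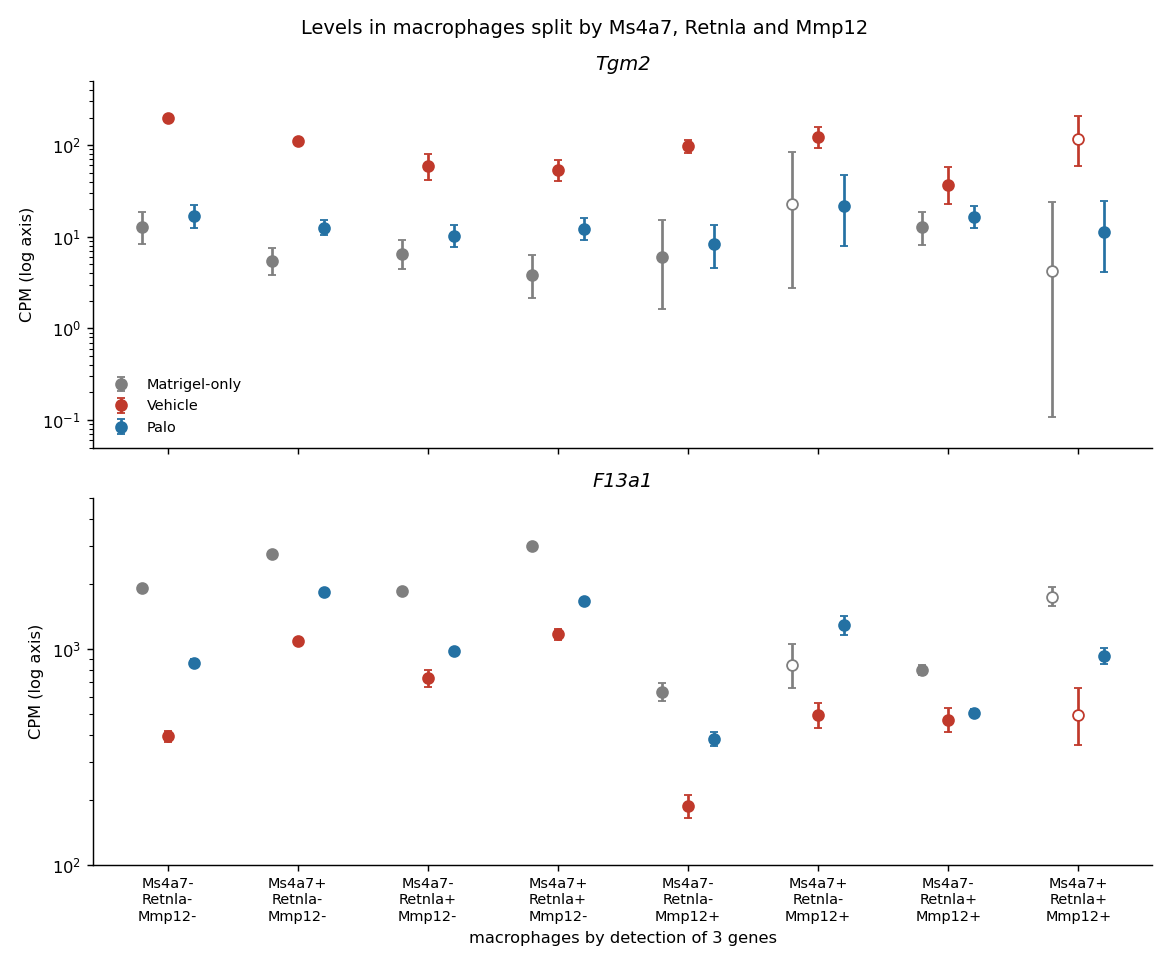
*Tgm2* (top) and *F13a1* (bottom) in CPM on log axes in macrophages of the 8 combinations of detected *Ms4a7*, *Retnla* and *Mmp12*, with exact Poisson intervals of 95%; open points are groups under 50 cells. Vehicle *Tgm2* lies above the other libraries in every combination, up to 199 CPM, while its *F13a1* lies below them in every one.

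The difference between libraries was found within the combinations. Of the 6 combinations with at least 50 cells in both libraries, *Tgm2* was higher in Vehicle than in Matrigel-only in 6, with log2 ratios of 1.55 to 4.35, and *F13a1* lower in 6, with -2.29 to -0.77. In Palo over Vehicle, *Tgm2* was lower in 7 of 7 combinations (-3.57 to -1.16) and *F13a1* higher in 7 of 7 (0.11 to 1.38), 6 of them beyond counting error. The combinations share the libraries and are not replicates. *Retnla* was detected in 12.6% of Vehicle macrophages against 49.2% in Matrigel-only and 46.1% in Palo. With the combinations of each library weighted as in Matrigel-only, Vehicle *Tgm2* was at 89.3 CPM and Vehicle *F13a1* at 859 CPM, and the log2 ratios of Vehicle over Matrigel-only were 3.71 and -1.39.

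Markers of other cells were also higher in Vehicle macrophages. Summed lymphoid markers were at 65.1 CPM against 6.19 in Matrigel-only and 5.03 in Palo, neutrophil markers at 107.3 against 38.4 and 33.5 CPM, basophil and mast cell markers at 28.4 against 0.884 and 1.93 CPM, dendritic markers at 21.0 against 7.91 and 9.22 CPM, and endothelial markers at 52.0 against 8.25 and 5.76 CPM. At most 1 gene of each list was detected in 10% of the cells. B cell markers stayed at 17.3 to 19.8 CPM, and smooth muscle markers were at 25.3 against 4.86 and 8.45 CPM. Adipocyte markers were at 12.3 CPM in Vehicle and 10.2 CPM in Palo against 126.4 CPM in Matrigel-only. In the 1895 Vehicle macrophages without a UMI of the lymphoid, B cell, neutrophil, basophil and mast cell, dendritic and endothelial lists, *Tgm2* was at 114.9 CPM (107.2 to 123), and in the 4667 and 4316 such cells of Matrigel-only and Palo at 6.83 and 13.9 CPM. *F13a1* in the same cells was at 2250.2, 867 and 1212 CPM. With the 203 Vehicle macrophages left out that had at least 0.2% stromal UMIs, *Tgm2* was at 119.8 CPM. Markers of platelets, a further known source of *F13a1*, reached 2 UMIs (*Itgb3* not counted) in 1, 6 and 1 macrophages, which held at most 0.291% of the macrophage *F13a1* UMIs.

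The genes whose levels were most like *Tgm2* over 24 groups of cells (stromal cells and the macrophage combinations of at least 50 cells in each library) were *Flt1*, *Aprt*, *Slc7a2*, *Cdh1* and *Mbd2*, with Pearson r of 0.886 to 0.845 among 5549 genes. Genes were compared if they had at least 50 CPM in 1 or more of these groups. Outside Vehicle macrophages, the class levels of *Flt1* and *Cdh1* were at most 6.87 CPM. The genes were picked for levels like those of *Tgm2*, so their levels by library repeat that choice. *Flt1*, a receptor of vascular endothelial growth factor, was at 0.688, 47.0 and 1.09 CPM in Matrigel-only, Vehicle and Palo macrophages. *Cdh1*, which encodes E-cadherin and is known from macrophages given interleukin-4, was at 0.540, 53.6 and 1.57 CPM. *Slc7a2*, a carrier of arginine, was at 6.88, 69.9 and 7.29 CPM. *Aprt*, an enzyme of purine salvage, and *Mbd2*, which binds methylated DNA, had a smaller range, at 157.9, 438.9 and 219.3 CPM and at 65.2, 98.4 and 71.4 CPM. Most like *F13a1* were *Gm21188*, *Rps29*, *Ptpn18*, *Trf* and *Gnpda1* (r of 0.984 to 0.963). *Trf*, which encodes transferrin, was at 505.8, 246.9 and 331.7 CPM in macrophages and at most 33.2 CPM in stromal cells. The points share libraries and classes, and these correlations are descriptions.

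In stromal cells *Tgm2* had a modest range. It was at 37.1 CPM in Matrigel-only (743 UMIs, 34.4 to 39.8), 22.8 CPM in Vehicle (537 UMIs, 20.9 to 24.8) and 20.6 CPM in Palo (326 UMIs, 18.4 to 23.0). Matrigel-only lay above the others, and the intervals of Vehicle and Palo overlapped. The log2 ratio was -0.70 for Vehicle over Matrigel-only (-0.87 to -0.54) and -0.14 for Palo over Vehicle (-0.35 to 0.06). Thinned to 3100 UMIs, *Tgm2* was found in 8.62%, 6.40% and 4.73% of stromal cells, and without thinning in 16.4%, 20.6% and 13.7%. In Vehicle the macrophages thus had a higher *Tgm2* level in CPM than the stromal cells, and in Matrigel-only and Palo less. Of all *Tgm2* UMIs, stromal cells held 82.5% in Matrigel-only, against 22.5% for Vehicle and 47.1% for Palo. The stromal levels of Matrigel-only and Palo also lay within the lymphoid intervals, which reach 39.1 and 21.3 CPM. The Vehicle level lay above its lymphoid interval, which reaches 13.4 CPM. Cells led by dendritic markers reach 6.77 CPM in Matrigel-only and 8.83 CPM in Palo, below the stromal levels. Their Vehicle interval, 7.04 to 41.8 CPM, covers the stromal level.

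Other genes that respond to or handle retinoids did not share 1 direction in stromal cells. *Cyp26b1*, which degrades retinoic acid, was at 46.5, 94.0 and 38.5 CPM in Matrigel-only, Vehicle and Palo, and *Rarb*, a receptor gene and classical retinoid target, at 4.34, 1.06 and 3.22 CPM. *Crabp1*, a carrier of retinoic acid, was at 16.6, 0.212 and 16.2 CPM. *Crabp2* and *Dhrs3* were at 4.89, 9.75 and 12.4 CPM and at 62.4, 60.7 and 42.0 CPM. For Palo over Vehicle the log2 ratios were -1.29 for *Cyp26b1*, 1.604 for *Rarb* (25 and 51 UMIs), 6.26 for *Crabp1*, 0.34 for *Crabp2* and -0.53 for *Dhrs3*, beside -0.14 for *Tgm2*. In macrophages the directions also differed. *Dhrs3* alone of these had a mean of at least 5 CPM there, and its ratio was 0.71 (0.64 to 0.78), beside -3.22 for *Tgm2*. On few UMIs, *Cyp26b1* gave -3.10 (94 and 21), *Crabp2* -2.52 (36 and 12) and *Rarb* 0.34, with an interval that spans 0. *Crabp1* had 0 and 2 UMIs.

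*Pi16*, which marks fibroblast progenitors of the adventitia, went with more *Tgm2* in stromal cells of Matrigel-only and Vehicle. *Tgm2* was at 54.6 CPM with and 20.1 CPM without *Pi16* in Matrigel-only, and at 50.1 and 19.6 CPM in Vehicle. In Palo the order was turned, with 13.01 CPM with and 23.3 CPM without *Pi16* (log2 -0.84, -1.29 to -0.41). *Cd34*, another progenitor marker, went with more *Tgm2* in all 3 libraries, by 1.92-, 2.45- and 1.73-fold. *Inhba*, which encodes the subunit of activin A, went with less *Tgm2* in Matrigel-only (15.8 against 41.3 CPM) and in Vehicle (16.8 against 49.8 CPM) and with more in Palo (26.4 against 17.7 CPM). *Acta2*, smooth muscle actin, showed the same turn, with log2 differences of -1.08, -1.03 and 0.42. *Cxcl12*, a chemokine of stromal progenitors, went with more *Tgm2* in Matrigel-only and Vehicle (log2 0.34 and 1.11) and with less in Palo (-0.57). *Cd44*, a receptor of hyaluronan, gave -1.22, 0.35 and 0.44 (Matrigel-only cells without it were at 63.8 CPM), and the genes of dividing cells *Mki67* or *Top2a* gave -0.39, 0.00 and 0.44. Vehicle stromal cells with the cartilage matrix genes *Acan* or *Col2a1* had 19.9 CPM of *Tgm2* against 28.3 CPM in those without, and cells with *Sox9*, the transcription factor of cartilage formation, 20.8 against 32.9 CPM. These stromal cells differed in depth, and in 4 groups of like size by depth *Tgm2* was at 74.3, 32.5, 42.4 and 27.9 CPM in Matrigel-only, at 41.9, 26.4, 23.1 and 15.6 CPM in Vehicle, and at 19.96, 8.62, 15.2 and 30.9 CPM in Palo, from the shallowest to the deepest. The part of depth in the splits was not tested. A few cells held much of the stromal *Tgm2*. The top 1%, 20 Matrigel-only, 13 Vehicle and 11 Palo cells, held 26.1%, 23.5% and 27.3% of its UMIs. The intervals do not allow for such cells, and their side of each split was not tested. Shares of Palo cells with a *Tgm2* UMI, which also depend on depth, had the same order as the CPM. They were 6.79% with and 16.8% without *Pi16*, and 17.8% and 12.1% for *Inhba*. For *Acta2* they were 18.0% and 10.3%, and for *Cxcl12* 12.8% and 15.4%.

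**Figure D4:**
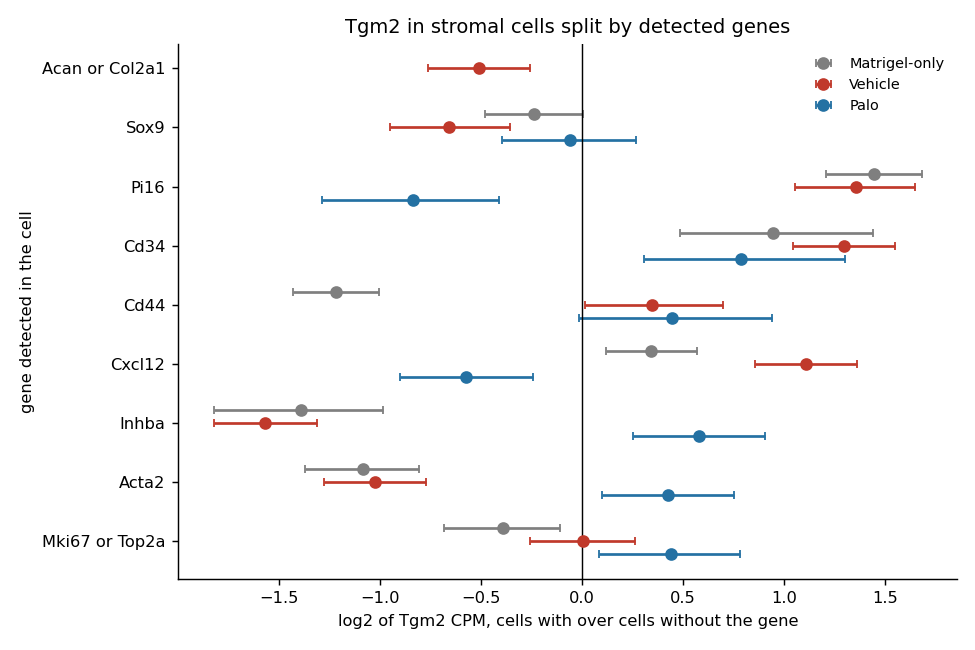
Log2 of *Tgm2* CPM in stromal cells with over stromal cells without each gene, with binomial intervals of 95%, by library; *Acan* or *Col2a1* is drawn for Vehicle alone, since the other libraries had 2 and 4 such cells. *Pi16* lies at 1.44 in Matrigel-only and 1.36 in Vehicle but at -0.84 in Palo, and *Inhba* at -1.39 and -1.57 but at 0.58.

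Stromal cells with *F13a1* UMIs differed in how many macrophage-marker UMIs they also held. Whether these *F13a1* UMIs came from the stromal cell itself, from a doublet or from free RNA was not tested. The level over all stromal cells was 83.4 CPM in Matrigel-only (79.5 to 87.5), 30.8 CPM in Vehicle (28.6 to 33.1) and 27.8 CPM in Palo (25.3 to 30.5), a log2 ratio of -1.44 for Vehicle over Matrigel-only (-1.56 to -1.31) and of -0.15 for Palo over Vehicle (-0.32 to 0.02). Thinned to 3100 UMIs, it was found in 9.60%, 5.18% and 4.63% of stromal cells. The 10 macrophage markers were at 934, 304.4 and 767 CPM in the same cells. In Matrigel-only stromal cells there were 8.93 UMIs of *F13a1* for each 100 of these markers (8.49 to 9.39), close to the 9.14 of the macrophages of that library, and in Palo stromal cells 3.62 (3.29 to 3.99) against 4.80 in macrophages. In Vehicle stromal cells there were 10.1 (9.37 to 10.9) against 4.02 in macrophages, so that here the stromal ratio was the higher.

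When stromal cells with at least 0.1% macrophage-marker UMIs were left out, *F13a1* was at 8.10 CPM in 1848 Matrigel-only cells (6.83 to 9.54), 20.3 CPM in 1290 Vehicle cells (18.4 to 22.2) and 5.01 CPM in 1091 Palo cells (3.93 to 6.30). The order of Vehicle and Matrigel-only was thus turned, with log2 ratios of 1.32 for Vehicle over Matrigel-only and -2.02 for Palo over Vehicle. The turn rested on 22 Vehicle cells with 5 or more *F13a1* UMIs, 1.71% of the 1290, which held 303 of the 453 UMIs (66.9%). The other 1268 Vehicle cells were at 6.85 CPM (5.80 to 8.04), and without the 22 cells the ratios were -0.24 (-0.58 to 0.10) and -0.45 (-0.88 to -0.04). The levels of 8.10, 6.85 and 5.01 CPM all lay within the *F13a1* intervals of the lymphoid cells. Those intervals were 1.70 to 50.8, 0.0387 to 8.51 and 1.40 to 41.8 CPM in Matrigel-only, Vehicle and Palo. The 20.3 CPM of Vehicle with the 22 cells lay above. No cell of the other libraries under the marker limit reached 5 UMIs. The cells under that limit held 8.61% of the stromal *F13a1* UMIs of Matrigel-only, against 62.3% for Vehicle and 16.6% for Palo. With stromal cells left out that had a *Csf1r* or *C1qa* UMI, the ratios were 1.33 and -2.22, and without the highest doublet scores -0.11 and -1.59. *Tgm2* in the cells under 0.1% was at 37.3, 22.5 and 19.7 CPM, close to the levels over all stromal cells.

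The *F13a1* of these Vehicle cells lay with the cartilage genes. Among cells under 0.1% macrophage markers, it was at 29.3 CPM in 819 cells with *Acan* or *Col2a1* (26.6 to 32.2) and at 2.75 CPM in 471 cells without (1.70 to 4.21). The same 22 cells, 2.69% of the 819, held 70.1% of the 432 UMIs of the cells with these genes, and the other 797 were at 9.03 CPM (7.54 to 10.7), which left a log2 difference of 1.71 (1.04 to 2.45). The interval of the 797 cells covers 8.51 CPM, the upper end for Vehicle lymphoid cells, and the 2.75 CPM lay within the lymphoid interval. Over all Vehicle stromal cells the levels were 42.6 and 7.99 CPM, a 5.33-fold difference (log2 2.41, 2.04 to 2.81), and the Matrigel-only and Palo libraries had 2 and 4 cells with these genes. By *Col2a1* UMIs in the cell, *F13a1* was at 4.04 CPM in 819 cells with none, 20.8 CPM in 200 cells with 1 to 4, 4.83 CPM in 55 cells with 5 to 19, 59.7 CPM in 106 cells with 20 to 99 (49.1 to 72.0) and 96.9 CPM in 110 cells with 100 or more (84.2 to 110.9). The increase was not even, and the level at 5 to 19 rests on 5 UMIs of *F13a1*. At 1 to 4, the highest cell held 32 of the 72 *F13a1* UMIs. At 20 to 99 and at 100 or more, the highest cells held 24 of 110 and 47 of 210. The 22 cells with 5 or more *F13a1* UMIs are included in these groups, and the intervals do not allow for such single cells. From the lowest group to the highest, 5.13%, 10%, 9.09%, 28.3% and 31.8% of cells had a *F13a1* UMI. In the highest group *Tgm2* was at 22.1 CPM, close to its 23.5 CPM in cells with no *Col2a1*.

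The same UMIs can be counted by cell, which adds no separate support. At least 5 UMIs of *F13a1* were found in 109 Matrigel-only, 39 Vehicle and 26 Palo stromal cells. All 109 and all 26 had at least 0.1% macrophage-marker UMIs, and of the 39 Vehicle cells 22 had less. Each of these 22 cells had an *Acan* or *Col2a1* UMI and at most 3 macrophage-marker UMIs, and the highest held 47 UMIs of *F13a1*. Of all 1290 Vehicle cells under the limit, 819 had an *Acan* or *Col2a1* UMI. *Acan* was found in all 22 cells and *Col2a1* in 21, against 55.8% and 35.5% of the 1268 others. The Matrigel-only and Palo libraries had only 2 and 4 stromal cells with these genes to compare. Chosen after their values were seen, these 22 cells had medians of 141 *Col2a1* and 80 *Acan* UMIs. *Ibsp*, the bone sialoprotein, was at 3374 CPM in them against 728 CPM in the 1268 other Vehicle stromal cells under the limit. *Col10a1* and *Ihh*, genes of later cartilage stages, had no UMI in the 22 cells. Each was found in only 0.237% of the 1268 others, so their absence from 22 cells says little. *Csf1r* was found in 2 of the 22 cells and *C1qa* in 1, against 15.1% and 9.07% of the others. Both belong to the markers that set the limit, so low counts of them were partly fixed by the choice of cells.

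**Figure D5:**
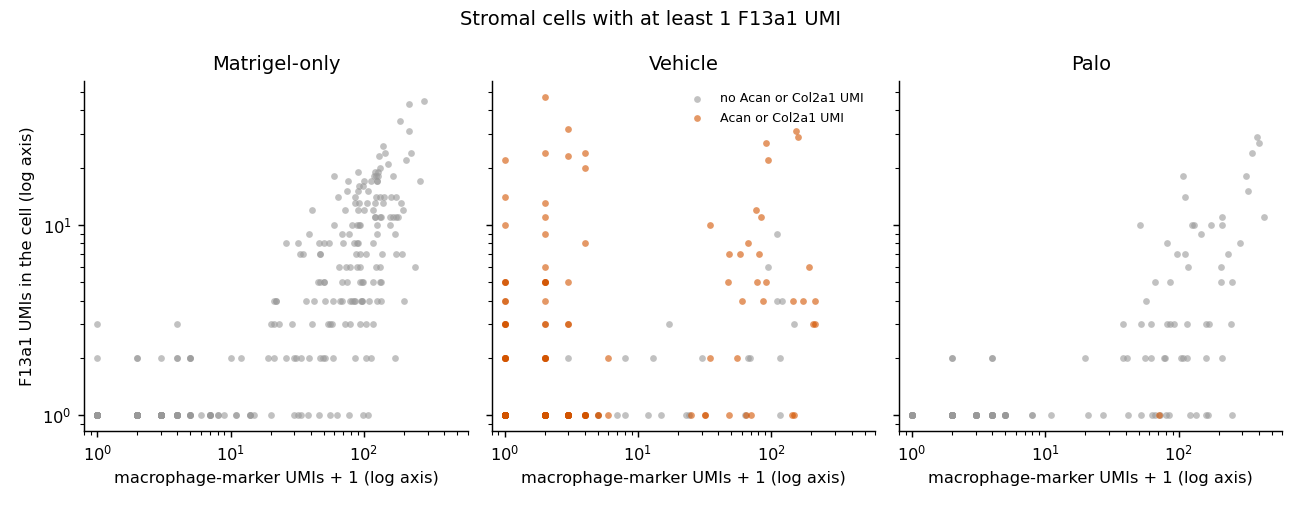
Stromal cells with at least 1 *F13a1* UMI, by the UMIs of the 10 macrophage markers plus 1 (horizontal, log axis) and by *F13a1* UMIs (vertical, log axis), 1 point per cell, with cells that had an *Acan* or *Col2a1* UMI in orange. In Matrigel-only and Palo, cells with 5 or more *F13a1* UMIs also carry many macrophage markers, while 22 Vehicle cells, all with cartilage genes, carry at most 3.

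Split by the other genes, stromal *F13a1* was 3.03-fold lower with *Cd34* and 3.51-fold lower with *Cxcl12* in Vehicle, and 2.10-fold higher with *Sox9*. In Matrigel-only, the *Sox9* and *Pi16* splits gave log2 differences of 0.03 and -0.08, both with intervals that span 0. *Inhba* and *Acta2* went with less *F13a1* in Matrigel-only, by 2.01- and 1.67-fold. In Palo, *Cd34* gave -0.86 and *Sox9* 0.52. These splits used all stromal cells. Cells under 0.1% macrophage-marker UMIs held 8.61%, 62.3% and 16.6% of stromal *F13a1* UMIs in Matrigel-only, Vehicle and Palo. The splits thus rest largely on cells with macrophage markers in Matrigel-only and Palo, and values for cells under the limit alone are not given here.

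The rest of the family was little seen. *Tgm1*, the transglutaminase of keratinocytes, was at 9.23, 7.94 and 6.89 CPM in macrophages of Matrigel-only, Vehicle and Palo and at 2.00, 1.48 and 2.15 CPM in stromal cells. Of *Tgm3*, *Tgm4*, *Tgm5*, *Tgm6*, *Tgm7*, *F13b* (the carrier subunit of factor XIII) and *Epb42* (the inactive member of red cells), none had more than 3 UMIs in either class of any library, and *Tgm6* and *Tgm7* had none.

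Known substrates of these enzymes differed between the libraries in both directions. Of 30 genes in that list, 24 had a mean of at least 5 CPM in stromal cells, of which 7 were at least 2-fold higher and 6 at least 2-fold lower in Vehicle than in Matrigel-only, beside 3.35% and 7.09% of all genes tested. The higher genes were *Spp1*, *Lgals3*, *Nid2*, *Col2a1*, *Col11a1*, *Thbs1* and *Ibsp*, and the lower *Fbn1*, *Nid1*, *Lamc1*, *Col3a1*, *Dcn* and *Mfap2*. *Col2a1* and *Ibsp* passed the limit on the mean only through Vehicle, so their directions were set by the filter. They were at 0.05 and 0 CPM in Matrigel-only and both at 0 CPM in Palo. The median log2 ratio of the list was 0.22, against -0.04 for all genes. *Spp1* (osteopontin) was at 427.5 against 92.7 CPM, and *Fbn1* (fibrillin of microfibrils) at 616 against 3321 CPM. *Fn1* (fibronectin) was at 9927 against 8376 CPM. *Col3a1* and *Dcn* also helped to define stromal cells. In Palo over Vehicle, 5 were at least 2-fold higher and 5 lower (*Fbn1*, *Nid1*, *Lamc1*, *Col3a1* and *Mfap2* higher, *Spp1*, *Lgals3*, *Col2a1*, *Col11a1* and *Ibsp* lower), beside 4.47% and 3.28% of all genes, with a median of -0.18 against 0.01. Both comparisons share the Vehicle library, and in both the directions of *Col2a1* and *Ibsp* were set by the filter.

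In macrophages 19 of the substrates were tested. *Spp1*, *Lgals3*, *Col2a1* and *Postn* were at least 2-fold higher and *Fbn1* lower in Vehicle than in Matrigel-only, that is 4 higher and 1 lower beside 2.49% and 1.17% of all genes, with a median of 0.30 against 0.00 for all genes. *Spp1* was at 129.0 against 7.02 CPM and *Lgals3* (galectin-3) at 1414 against 437 CPM. *Col2a1* was at 19.99 CPM in Vehicle macrophages and had no UMI in the others, and its level in Vehicle stromal cells was 1586 CPM. *Col2a1* thus passed the limit on the mean only through Vehicle. Its place among the higher genes here, and among the lower genes in Palo over Vehicle, was set by the filter. In Palo over Vehicle 6 were lower and 0 higher, beside 3% and 0.879% of all genes, with a median of -0.54 against -0.14. The 6 were *Spp1*, *Lgals3*, *Col5a1*, *Col5a2*, *Col2a1* and *Postn*. *Postn*, *Col5a1* and *Col5a2* were at 53.2, 31.5 and 27.8 CPM in Vehicle macrophages and at 3823, 2669 and 2613 CPM in Vehicle stromal cells. How much of these macrophage levels was RNA of stromal cells was not tested. Of 12 surface partners of *Tgm2*, such as integrins and syndecan-4, 10 were tested in each class. In Vehicle over Matrigel-only macrophages *Itga5* and *Sdc4* were at least 2-fold higher (2.49% of all genes were), *Sdc4* at 560.8 against 159.7 CPM, and in Palo over Vehicle *Sdc4* was lower (3% of all genes were). In stromal cells *Itgb3* was at 17.8 CPM in Vehicle against 93.6 CPM in Matrigel-only and 90.7 CPM in Palo, and *Sdc4* was lower in Palo than in Vehicle, at 85.5 against 241.7 CPM. The median of the partners was 0.05 in Vehicle over Matrigel-only and -0.06 in Palo over Vehicle in stromal cells, and 0.13 and -0.55 in macrophages, against -0.04, 0.01, 0.00 and -0.14 for all genes.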

How the data were processed

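Single-cell RNA from pooled day 5 masses was measured in 3 libraries. Raw UMI counts per gene and barcode were deposited by the authors, who used Cell Ranger 3.0.2 on the mm10 genome and then Seurat 3. The deposited counts were used as they are. As in the study, a cell was kept at 200 to 6000 genes and at most 5% mitochondrial UMIs. Doublets were not called for the values reported, and Scrublet's own threshold called 196, 9 and 4 cells, so an alternative left out the 609, 240 and 426 cells with the highest scores (0.8% per 1000 cells).

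The 2 genes, the classes and the gene lists were chosen with earlier results of these data known. Named genes were the 2 members, their family, list members past 2-fold, the splitting genes, retinoid genes (1 of them is not reported here) and the 5 genes most alike to each member. Levels are summed UMIs per 1000000 of the class, with exact Poisson intervals of 95%. Ratios carry conditional binomial intervals, and shares, thinned by the hypergeometric formula, exact binomial intervals. For list and background shares, genes with a mean over the libraries of at least 5 CPM were used and 5 CPM were added. UMI counts of 1 library are no replicates, and no p-value was computed. Lymphoid cells were those of neither class with at least 2 UMIs of 7 T and NK cell genes. The limit given for a count of 0 is 3 counts. Alternatives changed the cell filters, class limits, doublets, scaling, thinning and CPM added. The ratio and thinning steps were tested on simulated data. Python 3.11.15, numpy 2.4.6, scipy 1.17.1, pandas 2.3.3, scanpy 1.11.5, matplotlib 3.10.9 and, for TMM factors, edgeR 4.0.16 in R 4.3.3 were used. Positions and coding stretches are those of GENCODE vM21 on mm10, and no coding stretch lies in a UTR.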

Additional observations from a re-analysis of the deposited data

Results flagged for a closer look

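*Tgm2* went in opposite directions in the classes of cells. In Vehicle over Matrigel-only its log2 ratio was 4.13 in macrophages and -0.703 in stromal cells. In Palo over Matrigel-only it was 0.91 in macrophages and -0.848 in stromal cells. The *Tgm2* levels of Palo and Matrigel-only macrophages both lay within the intervals of the lymphoid cells, as did the stromal levels of these libraries. The ratio of Palo over Matrigel-only was above 0 in 6 of 6 macrophage combinations, in 2 of them beyond counting error. *F13a1* in Palo over Vehicle was at 0.646 in macrophages and -0.149 in stromal cells, the latter with an interval that spans 0. With 1 library per condition, these differences between classes were not tested.

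*Tgm2* was also found in cells that the comparisons did not use. In Vehicle cells that were neither stromal, macrophage nor lymphoid it was at 84.3 CPM (133 UMIs in 592 cells, 70.5 to 99.9), against 10.1 CPM in Matrigel-only (5.99 to 15.98) and 11.3 CPM in Palo. By leading marker list, 99 of these UMIs lay in 345 cells, at 110.7 CPM. Those cells had under 2 UMIs of each of the lymphoid, B cell, neutrophil, basophil and mast cell, dendritic, endothelial and platelet lists. The stromal and macrophage lists were not among these. *F13a1* was at 283.9 CPM in the 345 cells, and macrophage markers were at 4690 CPM over all 592. A further 20 *Tgm2* UMIs lay in 17 cells led by endothelial markers, at 159.1 CPM (97.2 to 245.7). Cells led by basophil and mast cell markers held 1 UMI in 92 Vehicle cells, cells led by dendritic markers 6 UMIs in 56, and cells led by neutrophil markers 6 UMIs in 82, at 81.7 CPM (30.0 to 177.7).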

How the results depend on the processing

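Of 289 values under an alternative, 205 stayed close to the reported value, 82 moved and 2 turned their direction. A turn was counted only where the reported interval did not reach 0. Stromal *F13a1* in Palo over Vehicle, with an interval that spans 0, was above 0 in 2 of 11 alternatives, which were not counted as turns. Close means within the reported value's counting interval or, for the 4 medians of the substrate list, which have none, within 0.1 on the log2 scale. With 1 library per condition there was no replicate to leave out. No paired analysis was possible because each condition had 1 library and no test was made. The cause of a move was not tested.

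Stromal *F13a1* changed most. With stromal cells under 0.1% macrophage-marker UMIs alone (chosen after seeing the data), it was at 8.10, 20.3 and 5.01 CPM in Matrigel-only, Vehicle and Palo, the log2 ratio of Vehicle over Matrigel-only turned to 1.32, Palo over Vehicle was -2.02 and Palo over Matrigel-only -0.69, and the *Acan* or *Col2a1* split was 3.41. With cells of 5 or more *F13a1* UMIs also left out (chosen after seeing the data), the levels were 8.10, 6.85 and 5.01 CPM and the ratios -0.24, -0.45 and -0.69. These levels lay within the intervals of the lymphoid cells. With stromal cells left out that had a *Csf1r* or *C1qa* UMI, the levels were 9.53, 24.0 and 5.16 CPM, the ratios 1.33, -2.22 and -0.89, the split 3.51, and *Tgm2* in Palo over Vehicle -0.39. Without the highest doublet scores the levels were 23.9, 22.2 and 7.37 CPM and the first ratios -0.11 and -1.59. A stromal limit of 0.5% gave 94.3 CPM in Matrigel-only and a Vehicle over Matrigel-only ratio of -1.59, and 2% gave 77.7 CPM in Matrigel-only and 27.5 CPM in Vehicle, and 772 CPM in Vehicle macrophages. All deposited barcodes gave a Palo over Vehicle ratio of 0.030.

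With all barcodes, *Tgm2* in Matrigel-only macrophages was at 8.71 CPM, with ratios of 3.73 (Vehicle over Matrigel-only) and 0.54 (Palo over Matrigel-only). As a mean over cells, *Tgm2* was at 137.6 CPM in Vehicle macrophages and at 42.6 and 26.6 CPM in Matrigel-only and Vehicle stromal cells, with stromal ratios of -0.53 (Palo over Vehicle) and -1.21 (Palo over Matrigel-only). *F13a1* was then at 2277 and 900.9 CPM in Matrigel-only and Vehicle macrophages, with ratios of -1.34 and 0.47, and at 34.9 and 24.98 CPM in Vehicle and Palo stromal cells, with ratios of -1.20 and -0.48. With macrophages called from 2 UMIs, *F13a1* was at 2347, 830.1 and 1270.0 CPM with ratios of 0.61 (Palo over Vehicle) and -0.89 (Palo over Matrigel-only), and Vehicle *Tgm2* at 113.5 CPM. In macrophages without other cells' markers (chosen after seeing the data), *F13a1* was at 867 CPM in Vehicle and 1212 CPM in Palo, with ratios of -1.38, 0.48 and -0.89, and *Tgm2* in Palo over Vehicle was -3.04.

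TMM factors gave 0.85 and -0.68 for macrophage *F13a1* (Palo over Vehicle and over Matrigel-only) and -3.02 for *Tgm2*. At Matrigel-only composition (chosen after seeing the data) *Tgm2* was 3.71 and -2.82, and *F13a1* -1.39 and -0.76 (Palo over Matrigel-only). Split on thinned counts, *F13a1* gave 0.60, 1.07 and 0.87 for *Ms4a7*, -1.63, -1.72 and -1.69 for *Mmp12*, and -0.31 and -0.47 for *Retnla* in Matrigel-only and Palo, and Vehicle *Tgm2* -1.77 for *Retnla*. Counting cells with at least 2 UMIs after thinning, the log2 ratios of shares were 5.63 and -4.71 for macrophage *Tgm2*, -1.20 and 0.56 for macrophage *F13a1*, and -1.08 and -1.51 for stromal *Tgm2* and *F13a1* in Vehicle over Matrigel-only. The macrophage *Tgm2* ratios rest on few cells. Before thinning, 11 Matrigel-only macrophages had 2 *Tgm2* UMIs, 2 had 3 or 4 and 1 had more, against 33, 13 and 1 in Palo. Among genes of at least 20 CPM, 5.43% were 2-fold higher in Palo over Vehicle and 7.75% lower in Vehicle over Matrigel-only in stromal cells. A mitochondrial limit of 10%, thinning to 1000 UMIs and 1 CPM added moved none of their values. Under-50-cell combinations and the 72 to 260 lymphoid cells limit what low *Tgm2* levels can show.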
